A study of Mus musculus with 4 samples.

Results

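The 10 genes described here are regulators and markers of blood stem and progenitor cells: Myb, Ikzf1, Ikzf2, Erg, Fli1, Etv6, Mecom, Hlf, Angpt1 and Cd34. They were chosen by name, with earlier results of these data known, and all 10 were found among the 23240 gene rows of the deposited table. Expression was given as RPKM, reads per kilobase of gene per M mapped reads, so levels can be set side by side between genes. The 4 libraries came from bone marrow of leukaemic mice. Their cell type label pairs RUNX1 with FLT3ITD (a duplication within the FLT3 gene that leaves this receptor active) and AML, acute myeloid leukaemia. A flow sort had kept GFP+ BFP+ cells without CD11b and Gr1, which mark mature myeloid cells, and the kept cells spent 22 h in medium holding FLT3L, SCF, IL3 and IL11.

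The libraries formed a grid of treatment and genotype with 1 library in each cell. EtOH replicate 1 and 4OHT replicate 1 came from Runx1 delta/delta cells of the B6 background, and EtOH replicate 2 and 4OHT replicate 2 from Runx1 delta/+ cells of the same background. The 4OHT cultures received 200 nM 4-hydroxytamoxifen, the active form of tamoxifen, and the EtOH cultures the same volume of its solvent, ethanol. The labels do not say which protein 4OHT acts on, which cells lost Runx1, what drove the GFP and BFP reporters, or whether a genotype was sampled from 1 mouse or more. Every group thus shared the leukaemia, the cytokines, the sort and at least 1 deleted Runx1 allele, and no cells with intact Runx1 were compared.

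Stem and progenitor cells of the blood are held in place by a small network of transcription factors. MYB drives proliferation of progenitors, the zinc finger proteins IKAROS (Ikzf1) and HELIOS (Ikzf2) recruit chromatin remodelling complexes during lineage choice, and the ETS family proteins ERG, FLI1 and ETV6 bind DNA through a shared domain. EVI1 (from Mecom) and HLF are factors of long-term stem cells, angiopoietin 1 (Angpt1) is the secreted ligand of the receptor TIE2, and CD34 is a surface sialomucin used to sort progenitors.

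Mapped reads recovered from the RPKM steps ran from 33.7 to 39.4 M per library, and whole reads came out for all 2000 of 2000 genes checked. Gene length was left free in that check, so totals off by a whole factor would have passed it too. The library of 4OHT replicate 1 stood apart at low values: 4588 rows lay above 0 and under 0.1 RPKM there, against 1989 to 2576 in the other 3 libraries, while rows of at least 1 RPKM numbered 9129 to 9619 in all 4. Globin genes held 12.3% of the summed RPKM in EtOH replicate 1 and 7.66% in EtOH replicate 2, against 0.918% and 0.662% in the 4OHT libraries of the same numbers. Runx1 itself stood between 328 and 568 RPKM in all 4 libraries and did not pass the test between genotypes (log2 difference, delta/delta minus delta/+, 0.12, limma adjusted p = 0.491). No level per exon was given, so the deletion could not be checked.

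The 10 genes spanned a wide range of levels. By mean RPKM over the 4 libraries Myb (59.6) and Ikzf1 (58.5) led, followed by Etv6 (15.1), Angpt1 (13.0), Erg (8.37), Fli1 (6.38) and Ikzf2 (5.22), and then by Hlf (0.439), Cd34 (0.156) and Mecom (0.00346). The ranges over libraries did not overlap between Ikzf1 and Etv6, between Ikzf2 and Hlf or between Cd34 and Mecom; every other pair of neighbours in this order overlapped. Hlf, Cd34 and Mecom had means under 1 RPKM, the limit set for testing, so that 7 of the 10 genes were tested. Summed over the 10 genes, the level was 60.1 RPKM in EtOH and 255 RPKM in 4OHT of delta/delta cells, and 107 and 246 RPKM in delta/+ cells, of which Myb and Ikzf1 made up 64.8% to 76.1%.

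**Figure D1:**
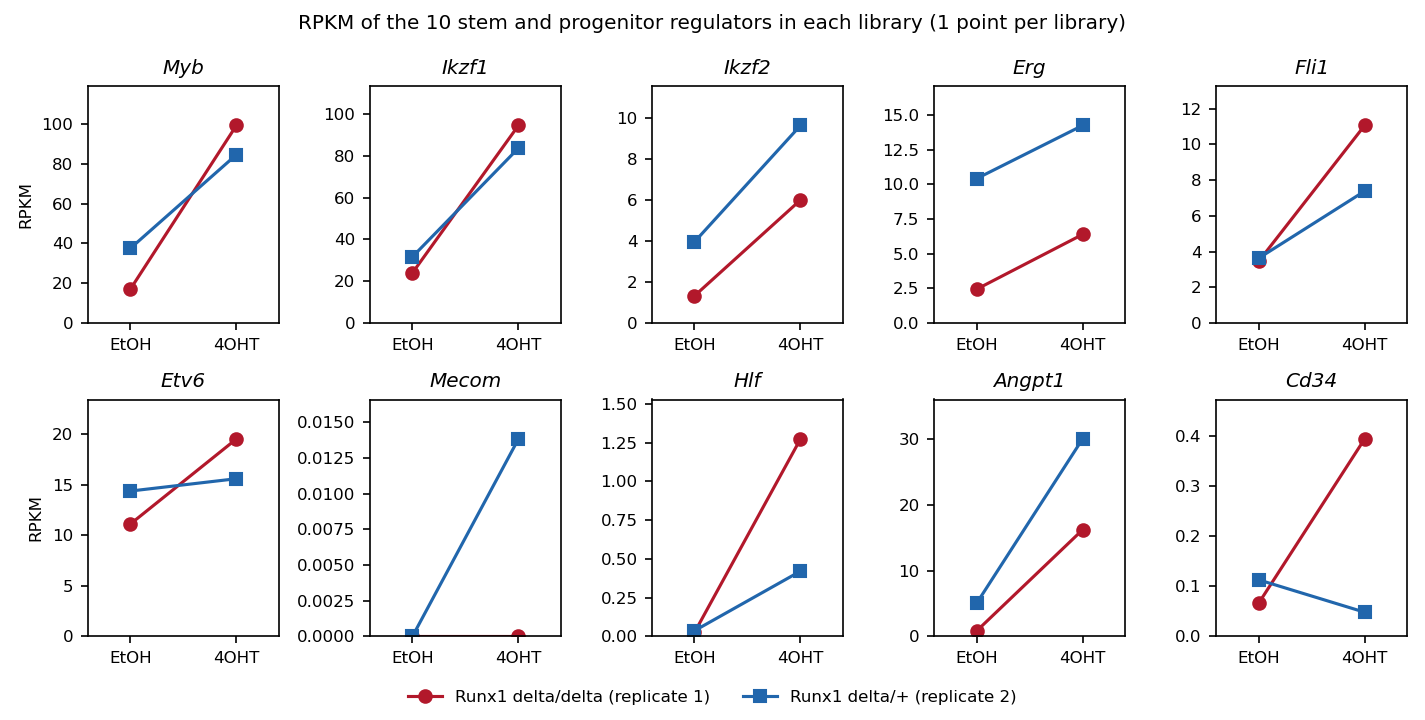
RPKM of each of the 10 genes (vertical axes from 0, scaled per gene) in EtOH and 4OHT libraries; each point is 1 library, and lines join the libraries of a genotype (red circles delta/delta, blue squares delta/+). All 7 genes whose mean reached 1 RPKM were higher in 4OHT than in EtOH in both genotypes, while Mecom, Hlf and Cd34 stayed under 1.3 RPKM.

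The first comparison sets 4OHT against its solvent. Of the 7 tested regulators 6 rose and 0 fell (Myb, Ikzf1, Ikzf2, Angpt1, Erg and Fli1), and Etv6 did not pass. Calls were made with limma on log2(RPKM + 1) at a Benjamini-Hochberg adjusted p under 0.05; 32.4% of the 9595 genes tested were called, 22.2% as higher and 10.2% as lower (2130 and 983 genes, or 1441 and 1666 with median-ratio scaling). The median fitted difference was 1.35 on the log2 scale for the 7 regulators and 0.16 for all genes tested. For 6 of the 7 both 4OHT libraries lay above both EtOH libraries (all but Erg), as did 38.4% of all genes tested. Because the genes were chosen with earlier results of these data known, their counts beside all genes are a description, not a test. In bulk RNA, a larger share of cells of a type and more RNA per cell cannot be told apart.

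Myb, the factor that drives progenitor proliferation, had 17.0 RPKM in EtOH and 99.2 RPKM in 4OHT of delta/delta cells (2216 and 13764 reads), and 37.5 and 84.5 RPKM in delta/+ cells (4772 and 12584 reads). Both 4OHT libraries were high and close to each other, and the EtOH libraries were low and apart. The fitted rise was 1.82 on the log2 scale (SE 0.31, 95% interval 1.02 to 2.61, limma adjusted p = 0.0130), the 128th largest rise among the genes tested. The RPKM ratio was 5.85 in delta/delta cells and 2.26 in delta/+ cells. The call rested on the genotype term: adjusted p = 0.0729 without it (no replicate block). With that term dropped and 1 library left out, limma gave adjusted p = 0.162 without EtOH replicate 1, 0.110 without 4OHT replicate 1, 0.0881 without 4OHT replicate 2 and 0.0318 without EtOH replicate 2.

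Ikzf1, which encodes IKAROS, a factor of lymphoid commitment that also acts in progenitors, had 24.0 and 94.6 RPKM (EtOH, 4OHT) in the delta/delta pair and 31.7 and 83.8 RPKM in delta/+ cells. The EtOH libraries were low and the 4OHT libraries high, with no overlap. It rose by 1.66 on the log2 scale (SE 0.18, 95% interval 1.21 to 2.10, limma adjusted p = 0.00506), and among the 7 tested genes it was the only one still called without the genotype term (adjusted p = 0.0401). With that term dropped, the call was lost without EtOH replicate 1 (adjusted p = 0.120) and without 4OHT replicate 1 (adjusted p = 0.0579). In the 4OHT libraries Myb and Ikzf1 stood level, at Myb to Ikzf1 ratios of RPKM of 1.05 and 1.01, whereas in EtOH the ratio was 0.707 in delta/delta cells and 1.18 in delta/+ cells.

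The 250 bases before the RefSeq start of Myb and of the first of the 2 listed starts of Ikzf1 are shown because these were the most abundant of the regulators. Capitals mark CpG dinucleotides, and both are written 5′ to 3′ on the strand of the gene (RefSeq, GRCm38.p6). The Myb window is chr10:21160985-21161234 on the minus strand and the Ikzf1 window chr11:11685675-11685924 on the plus strand.
Myb: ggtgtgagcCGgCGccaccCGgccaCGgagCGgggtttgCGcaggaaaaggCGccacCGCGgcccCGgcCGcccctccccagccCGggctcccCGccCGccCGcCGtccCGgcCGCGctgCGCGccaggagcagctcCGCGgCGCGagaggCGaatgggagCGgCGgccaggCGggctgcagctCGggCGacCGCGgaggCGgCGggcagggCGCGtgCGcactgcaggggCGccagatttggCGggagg
Ikzf1: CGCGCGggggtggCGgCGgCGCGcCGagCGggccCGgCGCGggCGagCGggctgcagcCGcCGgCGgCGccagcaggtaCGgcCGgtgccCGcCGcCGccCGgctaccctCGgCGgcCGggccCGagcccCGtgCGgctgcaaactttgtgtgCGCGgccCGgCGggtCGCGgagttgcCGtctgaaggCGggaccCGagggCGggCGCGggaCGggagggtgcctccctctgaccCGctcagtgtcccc
The Myb window held 40 CpG and 81.2% GC, and the Ikzf1 window 44 CpG and 82.0% GC, against medians of 6 CpG and 52.4% GC over 32851 windows of that length. The second Ikzf1 start had 1 CpG and 47.6% GC, and the windows of Cd34 and Hlf had 6 and 26 CpG. Windows were listed for 7 of the 10 genes, 11 in all. RUNX letters (TGTGGT or TGCGGT, both strands) were in 0 of the 11, against 18.6% of all windows, and MYB letters (TAACTG or TAACGG) in 0 of the 11, against 10.5%. GATA letters (AGATAA or TGATAA) were in 2, those of Erg and Mecom, against 16.6%, and ETS letters (CCGGAA) in 1, that of Hlf, against 12.03%. These are matches of letters only, in windows of 250 bases.

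Ikzf2, which encodes the IKAROS relative HELIOS, was expressed well below Ikzf1, with 1.32 and 5.99 RPKM (EtOH, 4OHT) in the delta/delta pair and 3.95 and 9.63 RPKM in delta/+ cells. The 4OHT libraries were the high ones, and the delta/+ library was the higher in each arm. It rose by 1.35 on the log2 scale (SE 0.18, 95% interval 0.89 to 1.81, limma adjusted p = 0.00728; 0.145 without the genotype term, and between 0.0731 without EtOH replicate 2 and 0.447 without EtOH replicate 1 when 1 library was also left out). Without EtOH replicate 1 the fitted rise was 0.80 on the log2 scale. The ratio of Ikzf1 to Ikzf2 RPKM was 18.2 and 15.8 (EtOH, 4OHT) in the delta/delta pair and 8.02 and 8.70 in delta/+ cells, with the delta/delta libraries the higher in both arms.

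The ETS factors differed among themselves. Fli1, a factor of megakaryocytes and stem cells, had 3.45 and 11.1 RPKM (EtOH, 4OHT) in the delta/delta pair and 3.62 and 7.38 RPKM in delta/+ cells. The EtOH libraries lay close together and both 4OHT libraries above them. Fli1 rose by 1.15 on the log2 scale (SE 0.19, 95% interval 0.67 to 1.63, limma adjusted p = 0.0117; 0.0765 without the genotype term, and 0.0907 without 4OHT replicate 2 to 0.274 without EtOH replicate 1). Erg, its closest relative and a stem cell factor, had 2.43 and 6.38 RPKM in delta/delta cells and 10.4 and 14.2 RPKM in delta/+ cells. Here EtOH of delta/+ lay above 4OHT of delta/delta cells, so the arms overlapped.

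The fitted rise of Erg was 0.76 on the log2 scale (SE 0.20, 95% interval 0.25 to 1.28, limma adjusted p = 0.0407), just within the threshold. It was lost with a pseudocount of 0.1 (adjusted p = 0.0504), with median-ratio scaling (0.0594), with low genes kept in the fit (0.106) and without the genotype term (0.538), and without EtOH replicate 1 and that term the value turned to -0.11 (adjusted p = 0.952). Without EtOH replicate 2 it was 1.63, without 4OHT replicate 1 1.29 and without 4OHT replicate 2 0.24, all without a call. Erg was below Fli1 in both delta/delta libraries (Erg to Fli1 ratios of RPKM of 0.705 and 0.577) and above it in both delta/+ libraries (2.87 and 1.93). Etv6, an ETS repressor needed by adult stem cells, had 11.1 and 19.5 RPKM in delta/delta cells and 14.4 and 15.6 RPKM in delta/+ cells. Its fitted difference was 0.44 on the log2 scale (SE 0.19, 95% interval -0.05 to 0.92, limma adjusted p = 0.143), so the interval reached from just below 0 to a rise of 0.92.

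Angpt1 showed the largest difference of the 7. It had 0.816 and 16.2 RPKM (EtOH, 4OHT) in the delta/delta pair (115 and 2423 reads) and 5.01 and 30.0 RPKM in delta/+ cells (689 and 4816 reads). All 4 levels were well apart, each 4OHT library above each EtOH library. It rose by 2.80 on the log2 scale (SE 0.23, 95% interval 2.21 to 3.39, limma adjusted p = 0.00317), the 25th largest rise among the 9595 genes. The RPKM ratios were 19.8 in delta/delta cells and 5.98 in delta/+ cells. Dropping the genotype term ended the call (adjusted p = 0.0762). With 1 library also left out, limma gave adjusted p = 0.143 without EtOH replicate 1, 0.120 without 4OHT replicate 2, 0.0273 without EtOH replicate 2 and 0.0463 without 4OHT replicate 1. The gene of its receptor TIE2, Tek, which was looked up after the values were seen, had 0.373 and 0.0527 RPKM (EtOH, 4OHT) in the delta/delta pair and 0.121 and 0.0109 RPKM in delta/+ cells.

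**Figure D2:**
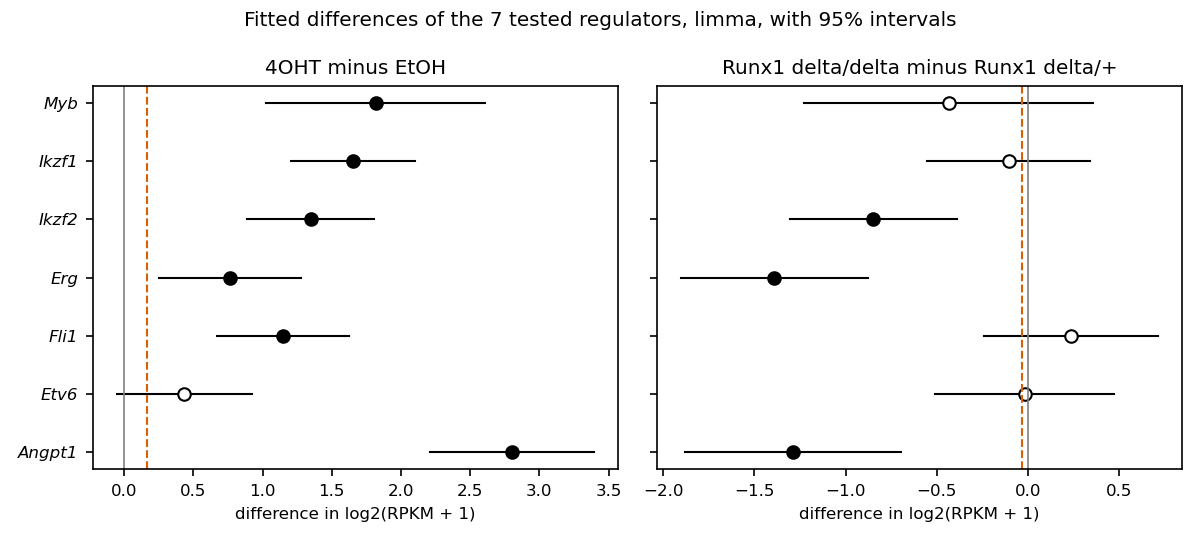
Fitted differences in log2(RPKM + 1) for the 7 tested genes, 4OHT minus EtOH on the left and delta/delta minus delta/+ on the right; bars are 95% intervals from limma, filled circles passed an adjusted p under 0.05, and the dashed line is the median of all genes tested. On the left 6 of 7 circles are filled and lie between 0.76 and 2.80; on the right Ikzf2, Erg and Angpt1 are filled and lie below 0.

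The 3 genes under 1 RPKM were described by their reads. Hlf, a circadian-type leucine zipper factor of stem cells, had 5 reads in EtOH and 265 in 4OHT of delta/delta cells (0.0255 and 1.27 RPKM), a ratio of 49.9 (95% exact interval 21.1 to 155). In delta/+ cells it had 7 and 94 reads (0.0367 and 0.421 RPKM), a ratio of 11.5 (95% exact interval 5.36 to 29.4). Both 4OHT libraries were above both EtOH libraries, as for 38.4% of all genes tested. These intervals cover counting error only and compare single libraries. The larger ratio rests on 4OHT replicate 1, the library that stood apart at low values, and any link was not tested. In the limma fit with no filter, Hlf missed the threshold (log2 difference 0.80, adjusted p = 0.0536).

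Cd34, the progenitor surface marker, had 6 and 38 reads (EtOH, 4OHT) in the delta/delta pair (0.0662 and 0.395 RPKM), a ratio of 5.96 (95% exact interval 2.50 to 17.3), and 10 and 5 reads in delta/+ cells (0.113 and 0.0484 RPKM), a ratio of 0.428 (95% exact interval 0.115 to 1.37). The high library was 4OHT replicate 1, the one with the most rows above 0 and under 0.1 RPKM; whether the 2 are linked was not tested. Mecom, which encodes the stem cell factor EVI1, had 0 reads in 3 libraries and 3 in 4OHT of delta/+ (0.0138 RPKM). At these depths, 0 reads do not tell an absent transcript from a level of up to 0.0148 to 0.0162 RPKM (3 reads).

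The 4OHT minus EtOH difference, taken with its sign, was larger in delta/delta cells than in delta/+ cells for all 7 tested genes. So it was for 54.4% of all genes tested, a share that also counts genes that fell less in delta/delta cells. The differences in log2(RPKM + 1) ran from 0.76 (Etv6) to 3.24 (Angpt1) in delta/delta cells, with a median of 1.59, and from 0.11 (Etv6) to 2.36 (Angpt1) in delta/+ cells, with a median of 1.10; over all genes tested the medians were 0.17 and 0.15. Myb showed the widest gap, at 2.48 against 1.15. For all 7 genes EtOH replicate 1 was the lowest of the 4 libraries, as it was for 39.5% of all genes tested. That library also had the highest globin share. With 1 library per arm in a genotype, no test of how the genotypes' responses differed was possible.

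**Figure D3:**
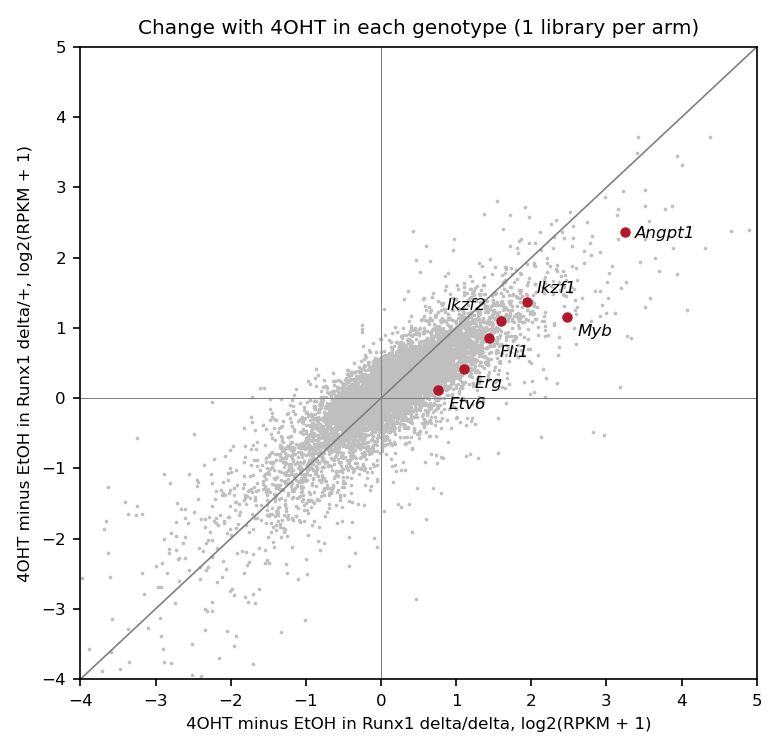
Difference between 4OHT and EtOH in log2(RPKM + 1) in delta/delta cells (horizontal) against delta/+ (vertical); grey points are the genes tested, of which 27 lie outside the plotted range, red points are the 7 tested regulators, and the diagonal marks equal differences. All 7 red points lie above 0 on both axes and below the diagonal, from Etv6 (0.76 and 0.11) to Angpt1 (3.24 and 2.36).

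Levels also differed between the genotypes for 3 of the 7, a count that describes genes chosen with earlier results of these data known. In the same limma fit 3 were lower in delta/delta cells (Erg, Angpt1 and Ikzf2) and 0 were higher, where 11.6% of the 9595 genes were called, 4.68% as higher and 6.91% as lower (449 and 663 genes, or 984 and 810 with median-ratio scaling). The median fitted difference, delta/delta minus delta/+, was -0.44 for the 7 genes and -0.03 for all genes tested. Genotype, replicate number and any difference between the mice cannot be told apart here. Cell type markers differed between the genotypes as well: all 4 tested neutrophil and monocyte markers were called higher in delta/delta cells (median 1.14; list sums of 49.2 and 58.8 RPKM in EtOH and 4OHT, against 20.3 and 22.3 RPKM), as were 3 of 10 erythroid markers. Of 3 dendritic cell markers tested, Flt3 among them, 1 was higher and 2 were lower, and 1 megakaryocyte and 1 endothelial marker were lower. Their part in the differences of Erg, Angpt1 and Ikzf2 was not tested.

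Erg, with RPKM 4.29-fold higher in delta/+ cells than in delta/delta cells in EtOH and 2.23-fold higher in 4OHT, differed by -1.39 on the log2 scale (SE 0.20, 95% interval -1.90 to -0.88, limma adjusted p = 0.0269), and its genotypes did not overlap. Angpt1 was 6.15-fold and 1.85-fold higher in delta/+ cells and differed by -1.29 (SE 0.23, limma adjusted p = 0.0348); Ikzf2 was 2.99-fold and 1.61-fold higher and differed by -0.85 (SE 0.18, limma adjusted p = 0.0454). The genotypes overlapped for both. With median-ratio scaling Erg, Angpt1 and Ikzf2 were all still called (limma adjusted p of 0.00696, 0.0116 and 0.0270). With a pseudocount of 0.1 only Erg was still called (adjusted p = 0.0348, against 0.0568 for Angpt1 and 0.0595 for Ikzf2), and none of the 3 was called when low genes were kept (adjusted p of 0.0750, 0.0905 and 0.131 for Erg, Angpt1 and Ikzf2) or without the treatment term (0.528, 0.877 and 0.822). With that term dropped, leaving out EtOH replicate 1 moved Angpt1 to 0.33 and Ikzf2 to -0.05, and leaving out 4OHT replicate 2 moved them to -0.11 and -0.30; Erg stayed between -1.94 and -0.84 in these 4 fits.

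For the other 4 genes the genotype difference was small against its error. Its 95% interval was -0.56 to 0.34 on the log2 scale for Ikzf1, -0.51 to 0.47 for Etv6, -0.24 to 0.71 for Fli1 and -1.23 to 0.36 for Myb. Flt3, the receptor named in the titles, was also lower in delta/delta cells (12.6 and 16.8 RPKM in EtOH and 4OHT, against 46.3 and 39.7 RPKM in delta/+ cells; log2 difference -1.49, SE 0.19, limma adjusted p = 0.0204). That call was lost when low genes were kept (adjusted p = 0.0636), without the treatment term (0.528) and, with that term dropped, in each of the 4 fits that left out 1 library (adjusted p of 0.646 or more).

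In the authors' deposited table of Kal's Z-tests between single libraries, 3 of the 10 genes had an FDR under 0.05 in each replicate, as did 3.98% of the 23240 rows in replicate 1 and 1.91% in replicate 2. By the authors' deposited table these were Myb, with folds of 6.23 and 2.34 for replicates 1 and 2, Ikzf1, with 4.21 and 2.74, and Angpt1, with 21.1 and 6.19. Ikzf2, Erg and Fli1 had folds of 4.84, 2.80 and 3.42 in replicate 1 and of 2.52, 1.42 and 2.11 in replicate 2 in the authors' deposited table, with an FDR of 0.450 or more.

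Genes that work with the regulators were read from lists set by name, with earlier results of these data known. Their counts stand against 32.4% of all genes tested called with 4OHT, 22.2% higher and 10.2% lower. A gene low in 1 arm could reach the limit for testing through the other arm alone, so the limit favours genes that differ. Bcl2, Ets1, Dbp and Cd244 were each under 1 RPKM in both EtOH libraries, and Slamf1 in both 4OHT libraries. Ly6a had 1.02 and 0.0613 RPKM in 4OHT of delta/delta and delta/+ cells. Of 19 IKAROS relatives and partners in the NuRD remodelling complex, 17 were tested, 3 rose and 1 fell with 4OHT (23.5% called, below the share of all genes; median 0.10, against 0.16 for all genes). The corepressor gene Ctbp2 rose by 0.79 on the log2 scale (adjusted p = 0.0138 in limma), and the remodeller gene Chd4 and the deacetylase gene Hdac2 by 0.47 and 0.49 (adjusted p of 0.0460 and 0.0482). Mbd2, a reader of methylated DNA, fell by 0.68 (adjusted p = 0.0207). Of 24 other ETS genes, 15 were tested, 4 rose and 0 fell (26.7% higher, near the 22.2% of all genes; median 0.31). They were Etv4, from 0.248 to 6.64 and from 2.17 to 9.22 RPKM (log2 difference 2.15), Etv5 (1.91), Elf4 (1.60) and Ets1 (0.82), with limma adjusted p of 0.00591, 0.00402, 0.00643 and 0.0282. The rises of Etv4 and Etv5, both of the PEA3 group of ETS factors, were larger than those of Erg, Fli1 and Etv6; these differences were not tested.

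Of 18 MYB partners and genes described as MYB targets, 12 were tested, 4 rose and 0 fell (33.3% called, near the 32.4% of all genes; median 0.11). Bcl2, the survival gene, went from 0.209 to 2.41 RPKM in delta/delta cells and from 0.314 to 1.32 RPKM in delta/+ cells (log2 difference 1.16, limma adjusted p = 0.0205). The kinase gene Cdk6 rose by 1.34 (adjusted p = 0.0271 in limma), from 22.2 to 90.2 and from 20.8 to 34.2 RPKM; with the genotype term dropped the value was 0.65 without 4OHT replicate 1 (adjusted p = 0.327) and 2.02 without 4OHT replicate 2 (0.0251). The acetyltransferase gene Kat2a and the methionine adenosyltransferase gene Mat2a rose by 0.80 each (adjusted p of 0.0140 and 0.0153). Of 14 genes of angiopoietin and TIE signalling, 4 were tested and all 4 were called, where 32.4% of all genes were: Itga5 (1.37), the adaptor gene Dok2 (2.51) and Angptl4 (1.07) rose, with limma adjusted p of 0.00631, 0.0167 and 0.0154, and Itgb1 fell by 0.50 (limma adjusted p = 0.0479). The other 10, Tek among them, were under the limit for testing.

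A further list of 12 genes held relatives of EVI1 and of HLF and, listed with them, Suv39h1, Ehmt2, Hdac4 and Smad3. Of these 12, 9 were tested, 2 rose and 0 fell (22.2% higher, as of all genes; median 0.43): Nfil3 by 1.15 and Dbp by 0.84 (log2; limma adjusted p of 0.00795 and 0.0262), both leucine zipper factors of circadian output. Tef and Ehmt2 did not pass (0.52 and 0.49, limma adjusted p of 0.0571 and 0.0654). Of 15 genes of the CD34 family, its ligands and other surface markers of stem cells, 7 were tested, 1 rose and 2 fell (42.9% called, against 32.4% of all genes, with a median of 0.14). The called genes were each low in 1 arm and reached the limit for testing through the other. This share is therefore not a result about the list. Cd244, a SLAM family receptor, rose by 3.23 (limma adjusted p = 0.00186), while Slamf1 (CD150) fell by 2.93 and Ly6a (SCA1) by 1.18 (log2; limma adjusted p of 0.00661 and 0.0110). The endoglin gene Eng did not pass (0.30, limma adjusted p = 0.341).

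Of 38 other stem and progenitor regulators, 22 were tested, 2 rose and 5 fell (9.09% higher and 22.7% lower, against 22.2% and 10.2% of all genes; median 0.03). Lmo2, the bridging partner of TAL1, fell most, by 2.83 (log2; adjusted p = 0.00124 in limma), from 205 to 29.8 RPKM in delta/delta cells and from 178 to 22.7 RPKM in delta/+ cells. Zfpm1, the GATA1 cofactor FOG1, fell by 2.09, Foxo3 by 1.31 and Gfi1b by 0.86 (adjusted p of 0.00245, 0.00446 and 0.00934). ERG, FLI1 and RUNX1 are known to bind together with GATA2, TAL1, LYL1 and LMO2 in stem cells. Picked as that set after values were seen, Lyl1 fell by 0.96 (limma adjusted p = 0.00974) and Runx1 by 0.67 (limma adjusted p = 0.0129; 0.0506 when low genes were kept, 0.119 without the genotype term and 0.245 to 0.450 with 1 library also left out), while Gata2 (-0.91, limma adjusted p = 0.0619) and Tal1 (-0.20, limma adjusted p = 0.384) did not pass. Of the 28 genes named from these lists by smallest p, 25 were called, and 4 of these still were when genotype was dropped from the model: Lmo2, Cd244, Elf4 and Zfpm1. Keeping low genes in the fit ended 7 calls (Angptl4 0.0591, Cdk6 0.0651, Chd4 0.0576, Ctbp2 0.0558, Dok2 0.0519, Hdac2 0.0612 and Itgb1 0.0651, all adjusted p from limma), a pseudocount of 0.1 ended that of Hdac2 (0.0504), and median-ratio scaling those of Chd4 and Hdac2 (0.213 and 0.183). With 1 library and the genotype term left out, most of these calls were lost. In those fits 26 to 28 of the 28 genes reached the limit for testing, and the others were not tested. Without EtOH replicate 1 the value was 0.51 for Ctbp2, 0.81 for Itga5, 0.29 for Mat2a and 0.24 for Hdac2; without EtOH replicate 2 it was 0.19 for Chd4, 1.30 for Mat2a, 0.73 for Hdac2 and -0.10 for Itgb1. Without 4OHT replicate 1 it was 0.26 for Chd4, -0.24 for Itgb1 and -1.39 for Gfi1b; without 4OHT replicate 2 it was -0.33 for Gfi1b, -0.71 for Ly6a, 0.47 for Mat2a and -0.76 for Itgb1. Chd4 and Itgb1 reached 0.74 and -0.90, and Gfi1b -0.45, without EtOH replicate 1.

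**Figure D4:**
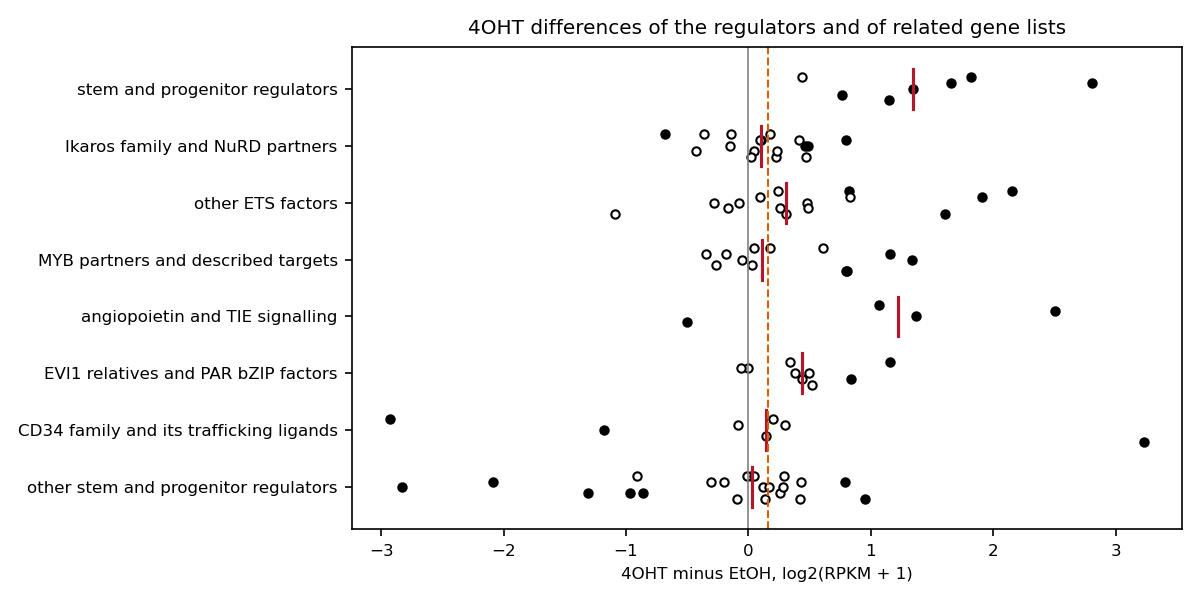
Fitted differences in log2(RPKM + 1), 4OHT minus EtOH, for the tested genes of each list (1 circle per gene, filled where the limma adjusted p was under 0.05; red bars are list medians, the dashed line the median of all genes tested; vertical spread within a list only separates points). The stem and progenitor regulators of this account have a median of 1.35, and the list of other such regulators one of 0.03.

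Markers of other cell types moved in the same libraries. Of 11 erythroid markers 10 were in the table, and 9 of these 10 fell with 4OHT, where 10.2% of all genes did; their summed level was 16899 and 5973 RPKM in EtOH of delta/delta and delta/+ and 2843 and 1462 RPKM in 4OHT. Of 10 megakaryocyte and platelet markers, 7 were tested, 6 fell and 1 rose, with sums of 378 and 379 RPKM in EtOH and 142 and 86.3 RPKM in 4OHT. Of 8 mast cell and basophil markers, 6 were tested and 3 rose, where 22.2% of all genes did, with sums of 12.4 and 15.5 RPKM in EtOH and 144 and 28.6 RPKM in 4OHT. The part of these shifts in the rises of the regulators was not tested.

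Neutrophil and monocyte markers (12 of 13 in the table, 4 tested, 0 called with 4OHT in limma, also 0 at an unadjusted p under 0.05) summed to 49.2 and 20.3 RPKM in EtOH and 58.8 and 22.3 RPKM in 4OHT. Itgam, the gene of CD11b, was at 0.168 to 0.358 RPKM throughout. Endothelial cells also use Erg, Fli1, Cd34 and the TIE receptors: their defining marker Cdh5 was at 0 in all 4 libraries, Kdr, Emcn, Tie1, Cldn5 and Esam were each under 0.1 RPKM, and the list of 9 summed to 20.7 and 19.7 RPKM in EtOH and 4.82 and 13.3 RPKM in 4OHT. Of the 9, 2 were tested (Pecam1 and Plvap), and 1 rose and 1 fell with 4OHT, where 32.4% of all genes were called. These 2 held most of the list sums. B cell markers summed to at most 0.661 RPKM, with Pax5, Ms4a1 and Ebf1 at 0, stromal markers to at most 0.0881 RPKM with Dcn at 0, and T and NK cell markers to at most 2.61 RPKM with Cd3e at 0. Dendritic cell markers, among them Flt3 and Bst2, summed to 491 and 201 RPKM in EtOH and 435 and 163 RPKM in 4OHT, with Siglech and Xcr1 at 0; of 3 tested in limma, 0 were called and 0 had an unadjusted p under 0.05.

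For 4 regulators the 3 genes of most like pattern were found, by Euclidean distance between gene-centred log2(RPKM + 1) values over the 4 libraries, among 7269 genes whose mean reached 5 RPKM. They were Cd63, Rassf5 and Mfge8 for Myb (distances 0.14, 0.23 and 0.27), Itga5, Sept6 and Cd69 for Ikzf2 (0.07, 0.13 and 0.13), Rnd2, Serpine2 and Myo1g for Angpt1 (0.36, 0.40 and 0.41) and Fam100a, Slc35c2 and Vkorc1 for Fli1 (0.06, 0.07 and 0.07). Cd63, nearest to Myb, had 30.6 and 191 RPKM (EtOH, 4OHT) in the delta/delta pair and 67.6 and 168 RPKM in delta/+ cells. With 4 libraries such likeness is a description of these profiles.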

How the data were processed

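RNA sequencing of 4 libraries was analysed from 1 deposited table. Per the file headers, it holds RPKM of each library, not pooled, and, for each replicate number, the result of the authors' Kal's Z-test as a p-value, a corrected p-value and a signed fold (a score here, since negative values mark falls). Per the submitters' processing notes the build was mm 9. Not given in the sources used here are aligner, counting rule, annotation and strand. Per the labels' protocols, library kits of 2 makers were in use; they are not assigned to libraries, so kit and treatment cannot be told apart.

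Library totals were recovered from the steps of the RPKM values with GENCODE M21 transcript lengths (tolerance at most 0.01 reads; 460 to 1208 genes agreed on each total), and intervals on reads (exact Clopper-Pearson, 95%) and the floor of 3 reads cover counting error only. For every member but Ikzf1 no annotated length gave whole reads, so the shortest length that did was used. If the true length differed, so would the reads and intervals. The depth was 33.7 to 39.4 M mapped reads. limma 3.58.1 in R 4.3.3 was fitted to log2(RPKM + 1) of the 9595 genes whose mean reached 1 RPKM, with treatment and genotype as terms, a trended prior (4.37 degrees of freedom beside 1 residual), two-sided tests and Benjamini-Hochberg adjustment over all genes; this scale understates changes of low genes. Genotype equals the replicate number; same-numbered libraries deviated together from their arm means (correlation across genes 0.664). No label names separate mice or cultures within a genotype, so p-values reflect only the spread among 4 libraries, which may be technical.

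The members and lists were chosen with earlier results of these data known. Named beside them are Runx1, Flt3, up to 4 genes of each related list with the smallest p and the 3 genes of most like pattern for 4 members; others are said to be chosen after their values were seen. Of the lists, Spi1 and Kmt2a were matched through older symbols in RefSeq (GRCm38.p6). Alternatives were a pseudocount of 0.1, no filter, median-ratio scaling, dropping a term, and leaving out each library.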

Additional observations from a re-analysis of the deposited data

Results flagged for a closer look

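Cd34 moved in opposite directions with 4OHT in the 2 genotypes, by 0.39 in delta/delta cells and by -0.0865 in delta/+ cells on the scale of log2(RPKM + 1), from 38 reads or fewer per library. Flt3 did so too, by 0.39 in delta/delta cells and by -0.22 in delta/+ cells, from 1599 to 5724 reads. Each genotype had 1 library per arm, so neither difference was tested.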

How the results depend on the processing

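Of 9595 genes, 3113 were called for 4OHT, 2130 higher and 983 lower; with median-ratio scaling, which moved the median of all genes from 0.16 to -0.04, the split was 1441 and 1666, while 5 of the 7 regulators still rose, all but Erg and Etv6. With genotype left out (no replicate block), 233 genes and 1 regulator, Ikzf1, passed, and with 1 library also left out 39 and 251 genes (EtOH replicates 1 and 2) or 250 and 217 genes (4OHT replicates 1 and 2) and 0 to 3 regulators did (0 without EtOH replicate 1, where 4 of 7 had an unadjusted limma p under 0.05). In those fits a lone library is assumed to vary like the others. The 4OHT difference of Erg turned to -0.11 without EtOH replicate 1.

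Between genotypes, 1112 genes and 3 regulators passed. With a pseudocount of 0.1, 1 regulator passed, and with median-ratio scaling 1794 genes and 3 regulators did. With no filter 0 genes and 0 regulators did in limma (3906 and 3 at an unadjusted p under 0.05), and without the treatment term 0 and 0 (880 and 1). With 1 library also left out, 0 genes and 0 regulators passed in each fit (166 to 629 genes and 0 to 4 regulators at an unadjusted p under 0.05), and Angpt1 turned to 0.33 without EtOH replicate 1. The causes were not tested. Counting error is widest for Hlf, Cd34 and Mecom.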

Other observations

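Some well-known stem and progenitor genes of the lists lay under the limit for testing and were looked up after the values were seen. Kit, the receptor of stem cell factor, had 0.0781 and 1.61 RPKM (EtOH, 4OHT) in the delta/delta pair and 0.0973 and 0.740 RPKM in delta/+ cells. Both 4OHT libraries thus lay above both EtOH libraries, as for 38.4% of all genes tested. Meis1, a homeobox cofactor, had 0.00840 and 0.332 RPKM in delta/delta cells and 0.586 and 2.64 RPKM in delta/+ cells. Hoxa9, its partner in many leukaemias, was listed at 0 and 0.180 RPKM in delta/delta cells and at 0.183 and 0.335 RPKM in delta/+ cells. The IKAROS relative Ikzf3 had 0.00706 RPKM in EtOH replicate 1 and was listed at 0 in the other 3 libraries.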
